A study of Arabidopsis thaliana with 16 samples.

Results

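PALE CRESS (PAC, AT2G48120) is a single nuclear gene for chloroplast biogenesis. It is represented by the 1 probe whose annotation names PAC and no other gene, among 691 genes that have a probe of their own. The gene was chosen by its lower measured intensity in pete1 than in WT, so its level, rank, values per array and difference are given as a description, with no test.

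The 16 expression arrays measured total RNA of Arabidopsis thaliana grown on soil, 8 from the pete1 mutant and 8 from the wild type (WT), both of the Columbia 0 ecotype. The pete1 mutant lacks 1 of the plastocyanin isoforms, the small copper proteins that carry electrons from the cytochrome complex to photosystem I. The sample titles carry the word soil for pete1 only. The labels give neither the pete1 allele nor the age of the plants, the organ sampled or the light they grew in. No probe names a plastocyanin gene alone, so the mutated gene could not be followed.

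PAC encodes a protein imported into the chloroplast. Arabidopsis plants without it are pale or albino, their plastids stop developing at an early stage, and they survive as seedlings only when fed sugar. The protein is known to be needed for the maturation of plastid RNA and to associate with ribosomal RNA of the large subunit of the plastid ribosome.

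PAC was less bright on every pete1 array than on any WT array. As deposited, on a linear scale where the brightest spots of an array are set to the ceiling, its intensity on the 8 pete1 arrays had a lowest value of 0.0954, a median of 0.189 and a highest value of 0.281. On the 8 WT arrays the lowest value was 0.497, the median 0.649 and the highest 0.745. The pete1 mean was 0.180 ± 0.073 and the WT mean 0.635 ± 0.087 (SD of 4 averages of arrays with consecutive replicate numbers), a ratio of 3.53 of WT over pete1. The ranges of the groups were 0.216 apart and no array was at 0.

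The deposited arrays are not on one scale, and the size of the PAC difference depends on how they are brought to one. Array medians ran from 0.0524 to 0.205 in pete1 and from 0.129 to 0.193 in WT. The 4 pete1 arrays with the lowest PAC intensity, replicates 1 to 4, are also the 4 with the lowest array medians. Relative to its array's median, PAC was 1.09 to 3.01 times as bright in pete1, with a median of 1.23, and 3.11 to 5.38 times as bright in WT, with a median of 3.82. On this scale pete1 replicates 1 and 2 turn from among the dimmer pete1 arrays into the brightest ones, at 3.01 and 2.08, while replicates 3 to 8 lie between 1.09 and 1.38. The groups still did not overlap, but only 0.103 array medians separated pete1 replicate 1 from WT replicate 5.

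**Figure D1:**
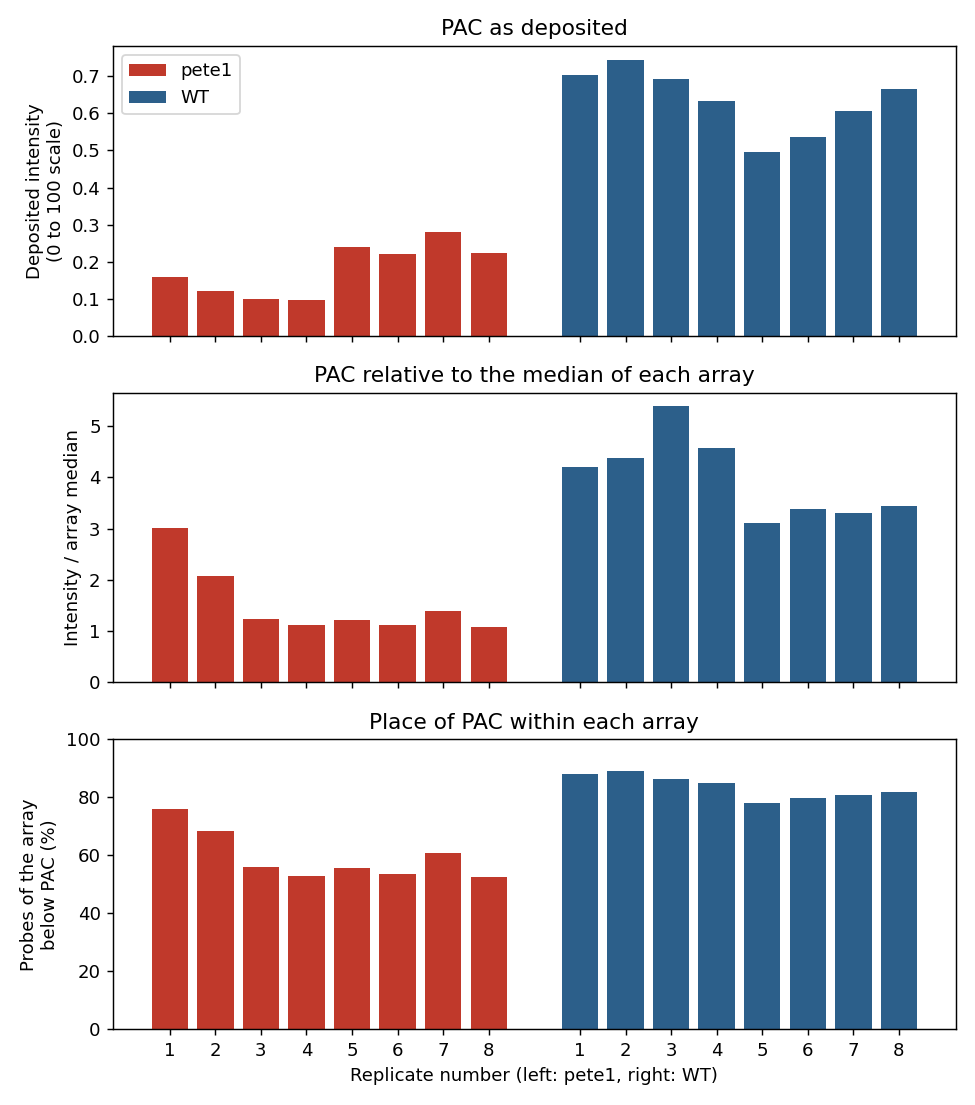
Each bar is PAC on 1 array, with the 8 pete1 arrays on the left and the 8 WT arrays on the right, as deposited intensity, as a multiple of the median probe of the array, and as the percentage of the array's probes that are dimmer than PAC. All 8 pete1 bars are below all 8 WT bars in each panel. The pete1 array nearest to WT is replicate 7 as deposited (0.281) and replicate 1 in the lower panels (3.01 array medians and 76.0%).

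The place of PAC within each array needs no scaling at all. PAC was brighter than 52.5% to 76.0% of the 3439 probes on pete1 arrays, with a median of 55.8%, and brighter than 78.1% to 89.1% on WT arrays, with a median of 83.5%. Counted from the brightest probe, it ranked between 827 and 1633 in pete1 and between 376 and 752 in WT. PAC thus lay near the middle of the array on 6 of 8 pete1 arrays and above 78.1% of the probes or more on every WT array. Probes differ in how well they bind and light up, so this rank is a place among spots and does not compare the amount of PAC transcript with that of other genes.

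Quantile normalization gives all arrays the same distribution of values except at the low end, where the array floors still ran from -7.06 to -4.10 (log2). After it, PAC had a log2 intensity of -2.29 ± 0.44 in pete1 and -0.81 ± 0.40 in WT (SD, n = 4 pair averages each). Over single arrays the log2 intensity in pete1 was between -2.63 and -1.42 with a median of -2.48, and in WT between -1.27 and -0.27 with a median of -0.85. The log2 difference, pete1 minus WT, was -1.48, so PAC was 2.79 times as bright in WT as in pete1. The SE of this difference in the limma fit, which draws on the spread of all probes, was 0.26 over 16 arrays and 0.44 over 8 pair averages. Arrays measure the RNA of a whole sample, in which fewer cells that express a gene and less RNA per cell cannot be told apart. Nothing in the labels ties the arrays to separate plants, so the spread between arrays, and every p-value that rests on it, may be technical.

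In WT, arrays with consecutive replicate numbers gave like PAC values. Within such a pair the PAC log2 values differed by 0.11 to 0.13 in WT and by 0.088 to 0.43 in pete1. Between the pairs of WT the differences were larger. WT replicates 1 and 2 averaged -0.33, replicates 3 and 4 averaged -0.65, replicates 7 and 8 averaged -1.04 and replicates 5 and 6 averaged -1.21. In WT, then, PAC ran over a wider range from pair to pair than within any pair. Among the pete1 arrays, replicates 1 and 2 averaged -1.63, and the other pairs lay close together between -2.54 and -2.44. The averages of those other pairs were closer to each other than the arrays within replicates 1 and 2 (0.43 apart) or 7 and 8 (0.39 apart).

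Replicates 1 and 2 of pete1 stand apart from the other pete1 arrays in more than PAC. They have the lowest array medians of all 16 arrays and, at 24.6% and 23.3%, the largest shares of values at 0, against 13.2% to 19.3% on the other 14. Without them the 6 remaining pete1 arrays had a PAC mean of -2.50 ± 0.14 (log2, SD over arrays), the log2 difference from WT was -1.70, and the nearest arrays of both groups were 0.97 apart in place of 0.15. Replicates 1 and 2 have the highest normalized PAC values of pete1, so leaving them out could only widen the difference.

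**Figure D2:**
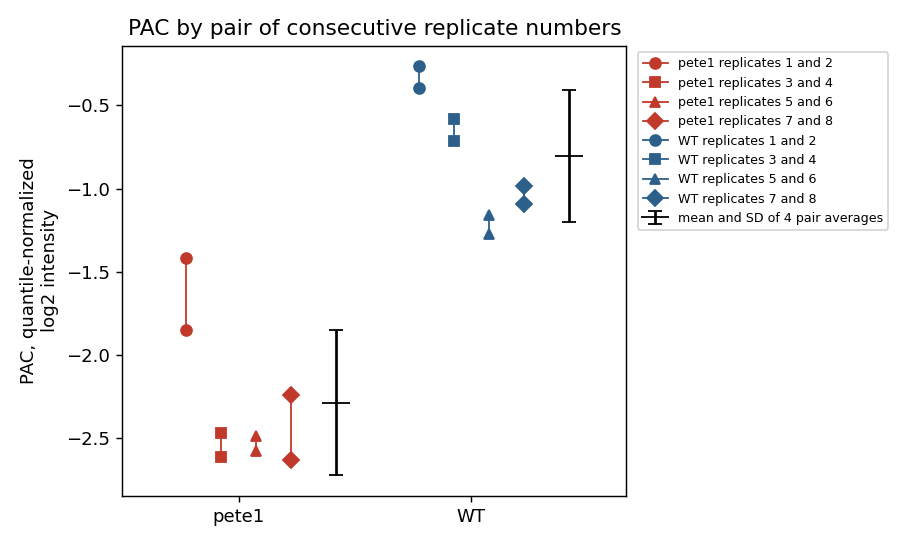
PAC as quantile-normalized log2 intensity, with pete1 left of WT. Each joined pair of points is 2 arrays with consecutive replicate numbers, and the black marks are the mean and SD of the 4 pair averages of each group. The pete1 pairs sit at or below -1.63 on average and the WT pairs at or above -1.21.

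Among all 3439 probes the PAC difference lay in the lower tail. The median probe had a log2 difference of 0.22 and the 5th percentile was -1.20, against -1.48 for PAC, which put PAC at -1.70 relative to the median probe. The 0.22 depends on the array floors. With 1 floor for all arrays the median probe was at 0.0078 and PAC at -1.49 relative to it. Without the dimmest 25% of probes these values were -0.0067 and -1.47. Counted from the lowest, PAC ranked 95 of 3439 probes and 16 of the 692 probes that name 1 gene. Many larger differences belong to probes that are at the lowest measurable level on part of the arrays. PAC never was. Of the 1275 probes above the highest array floor (the level to which 0 values were raised) on all 16 arrays, PAC ranked 36 from the lowest, and 6 among the 253 of these that name 1 gene.

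Groups without overlap, pete1 below WT, were seen for 58 of 3439 probes (1.69%) after normalization and for 76 (2.21%) as deposited, and for 45 on both scales. Of the 692 probes naming 1 gene, 12 had it after normalization. PAC is among these, as the choice of the gene implies. In the limma fit over 16 arrays 464 of 3439 probes (13.5%) passed at an adjusted p under 0.05, 283 higher (8.23%) and 181 lower (5.26%) in pete1. This balance turns with the scaling and with the floor. It was 27 higher and 242 lower without any normalization. Median centring gave 168 higher and 186 lower, and 75th percentile scaling 169 higher and 199 lower. With quantile normalization kept, 1 floor for all arrays gave 190 higher and 183 lower, and a 1st percentile floor 579 and 196. Leaving out the dimmest 25% of probes gave 185 and 185. The fit over 8 pair averages passed 9 probes (0.262%).

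**Figure D3:**
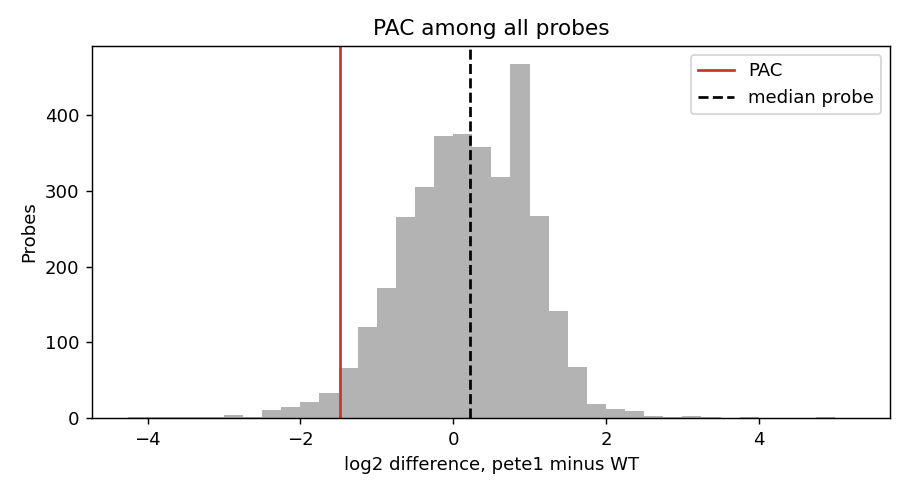
Histogram of the log2 difference, pete1 minus WT, of all 3439 probes after quantile normalization. The red line marks PAC at -1.48 and the dashed line the median probe at 0.22, which was 0.0078 with 1 floor for all arrays.

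The spread of PAC within the groups was small for this table. Its pooled SD was 0.40 on the log2 scale, against a median of 0.79 over all probes and 0.63 over those above the highest floor on all arrays. From the smallest SD, PAC ranked 140 of 3439 and 135 of 1275. Its SD over the 8 arrays was 0.44 in pete1 and 0.37 in WT.

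Other genes that plastids need to develop were taken from lists by their known role. Of 193 distinct plastid genes on 5 lists, 12 had a probe of their own. In the fit over 16 arrays 1 of the 12 passed, OTP70, which was higher in pete1, and 0 passed as lower, where 13.5% of all probes passed in either direction. Over pair averages 0 of the 12 passed, beside 0.262% of all probes. The median log2 difference of the 12 was 0.34, beside 0.22 for all probes. Both medians take in probes at the floor. SPPA, OTP85 and PRPS6 were at the highest floor on 7 or 8 arrays of each group. Their differences of 0.76, 0.99 and 0.998 became 0, 0.14 and 0.15 with 1 floor for all arrays, and the median of all probes became 0.0078. The 12 therefore show no tendency that can be told from the floors.

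Genes of plastid RNA processing are nearest to PAC in known role. OTP70, a pentatricopeptide repeat protein needed for splicing of a plastid RNA polymerase transcript, had log2 intensities in pete1 between -2.15 and -1.29 with a median of -1.63, and in WT between -3.98 and -2.59 with a median of -3.14. On the log2 scale OTP70 rose by 1.499 (SE 0.25; limma adjusted p = 0.0012 over 16 arrays and 0.156 over pair averages), and its arrays did not overlap, with pete1 above WT. After normalization, 48 of 3439 probes had no overlap in this direction, and as deposited 12 had none. Its call was lost in 1 of 13 other settings, the averaging of pairs. The RNA editing factor CRR21 had a mean of -1.94 ± 0.63 in pete1 and -2.92 ± 1.19 in WT (SD over 8 arrays; limma adjusted p = 0.119). MTERF9, which acts in assembly of the small plastid ribosomal subunit, had a mean of -1.30 ± 0.86 in pete1 and -1.74 ± 0.68 in WT (limma adjusted p = 0.443). The editing factor OTP85 was at the highest floor on 7 of 8 pete1 and 8 of 8 WT arrays, so no difference could be measured for it.

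Of the nuclear genes for plastid ribosomal proteins 6 had a probe of their own and 0 passed, which at 13.5% of all probes passing says nothing about the group. PRPL29 of the large subunit had a mean log2 intensity of 0.18 ± 0.45 in pete1 and 0.94 ± 0.65 in WT, a difference of -0.76 (SE 0.31; limma adjusted p = 0.0746). PRPL34 had a difference of -0.61 and PRPL5 one of -0.17, which was 0.027 with 1 floor for all arrays. PRPL17 had a difference of 0.25. PRPS10 had a difference of 0.17 and was at the highest floor on 5 of 8 arrays in each group, and PRPS6 was there on 7 pete1 and 8 WT arrays.

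In the other lists, SPPA, a protease of the thylakoid membrane, was at the highest floor on all 16 arrays. Carotenoid synthesis, which protects young plastids from light damage, had 1 measured gene. This was the zeta-carotene isomerase Z-ISO, with a mean of -2.60 ± 0.75 in pete1 and -2.69 ± 1.399 in WT (SD over 8 arrays; limma adjusted p = 0.917), a difference of 0.091 that was -0.029 with 1 floor for all arrays. No gene on the list for plastid transcription had a probe of its own.

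**Figure D4:**
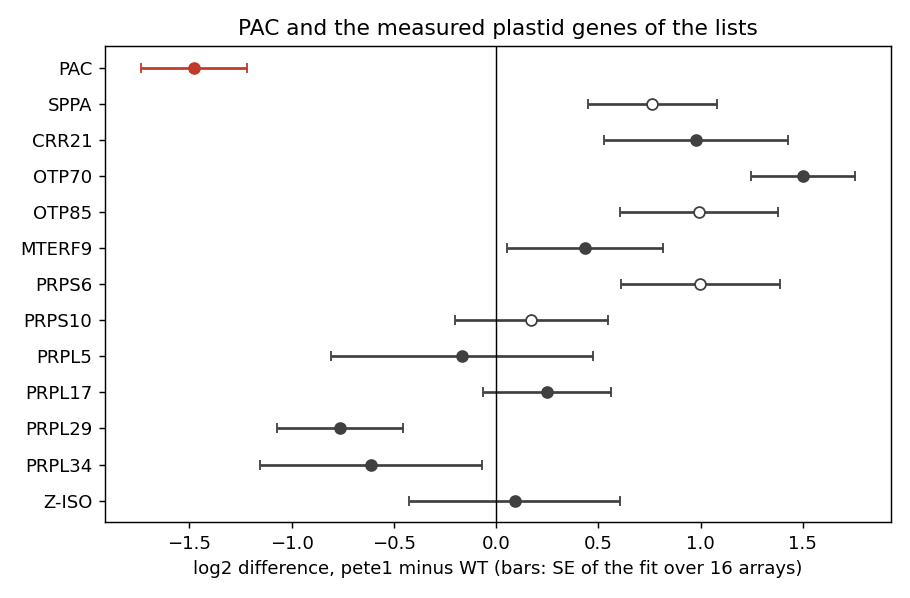
Log2 difference, pete1 minus WT, of PAC (top, red) and of the 12 measured plastid genes of the lists, with the SE of the fit over 16 arrays. Open points are genes at the highest array floor on 10 or more of the 16 arrays, whose fitted differences follow the floors. PAC lies at -1.48 and OTP70 at 1.499, and the remaining points lie between -0.76 and 0.998.

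Photosynthetic leaf markers were measured for 5 of 25 listed genes, and none of the 5 was at the highest floor on any array. Their summed normalized intensity was 67.3 to 111.7 in pete1, with a median of 76.7. In WT it was 28.5 to 77.7, with a median of 55.1, so the ranges overlapped. Any part of leaf content in the PAC result was not tested. PSBY, a small photosystem II protein, was the 1 of 5 that passed, beside 13.5% of all probes. It rose by 1.13 (log2, SE 0.35, limma adjusted p = 0.0413 over 16 arrays and 0.312 over pair averages). Its call was kept in 7 of the 16 fits without 1 array and in 9 of 13 other settings. It was lost on the deposited scale and in every setting that averaged the pairs or took them as a random block. The remaining markers did not pass. LHCB1.5, PSBW and PSAN had log2 differences of 1.16, 0.78 and 0.56, and the Calvin cycle enzyme PRK had one of -0.35. The sum follows its brightest probes, PSBW and LHCB1.5. Markers of root, epidermis, vascular tissue and reproductive organs had no probe of their own, so their part in the PAC result was not tested.

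The genes whose pattern was most like that of PAC were sought among 440 probes that name 1 other gene and lie above their array's floor on at least 14 of 16 arrays. The first measure leaves the pete1 and WT difference out. It is Pearson's r, over 16 arrays, of each gene's log2 values minus their group mean. This r had a median of -0.012 over the 440 probes and a 95th percentile of 0.62. All probes share the 16 arrays, and arrays with consecutive numbers deviate together, so the values of r describe these arrays and carry no test.

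The highest r belonged to AT1G32730 (0.81) and to PSAN (0.81), a subunit of photosystem I on the side where plastocyanin docks. They were followed by AT4G26770, of the enzymes that make CDP-diacylglycerol (0.80), AT2G35390, a phosphoribosyl pyrophosphate synthase (0.79), AT2G25870 (0.78) and AT4G32340, a tetratricopeptide repeat protein (0.76). Between the groups, which this measure leaves out, 2 of these 6 genes passed as lower in pete1, 1 passed as higher and 3 did not pass. In the same fit over 16 arrays, 5.26% of all probes passed as lower in pete1 and 8.23% as higher. AT4G32340 fell by 1.23 (log2; SE 0.29; limma adjusted p = 0.0103 over 16 arrays and 0.262 over pair averages), and AT4G26770 fell by 1.32 (limma adjusted p = 0.0335 over 16 arrays and 0.274 over pair averages). AT2G35390 rose by 1.09 (limma adjusted p = 0.0136 over 16 arrays and 0.274 over pair averages). AT4G26770 kept its call in 9 of 16 fits without 1 array and lost it with median centring and cyclic loess, and AT2G35390 lost its call on the deposited scale. With pairs as a random block AT4G32340, AT4G26770 and AT2G35390 all lost their calls (limma adjusted p = 0.0708, 0.218 and 0.153). PSAN had a difference of 0.56, AT1G32730 of 0.44 and AT2G25870 of 0.29, and none of these 3 passed. A second probe of AT2G25870 had a difference of -0.95 and an r with PAC of 0.056, so the likeness of this gene holds for 1 of its 2 probes.

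The second measure is Pearson's r of the values themselves, which takes in the difference PAC was chosen for. AT4G32340 came first (0.92) and AT4G26770 sixth (0.87), so both are near PAC by either measure. Between them were AT5G05330, an HMG-box protein (0.89), AT4G39690, of the mitochondrial MICOS complex (0.88), AT2G36480 (0.87) and the drought-induced gene DI21 (0.87). All 6 were lower in pete1, with log2 differences from -2.83 in AT2G36480 to -1.02 in AT4G39690. Because this measure picks genes for that difference, it is not tested here. AT5G05330 followed PAC less closely within the groups (r = 0.34). AT4G32340 had log2 intensities in pete1 from -1.42 to -0.41 and in WT from -0.60 to 1.14, so its groups overlapped where those of PAC did not.

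**Figure D5:**
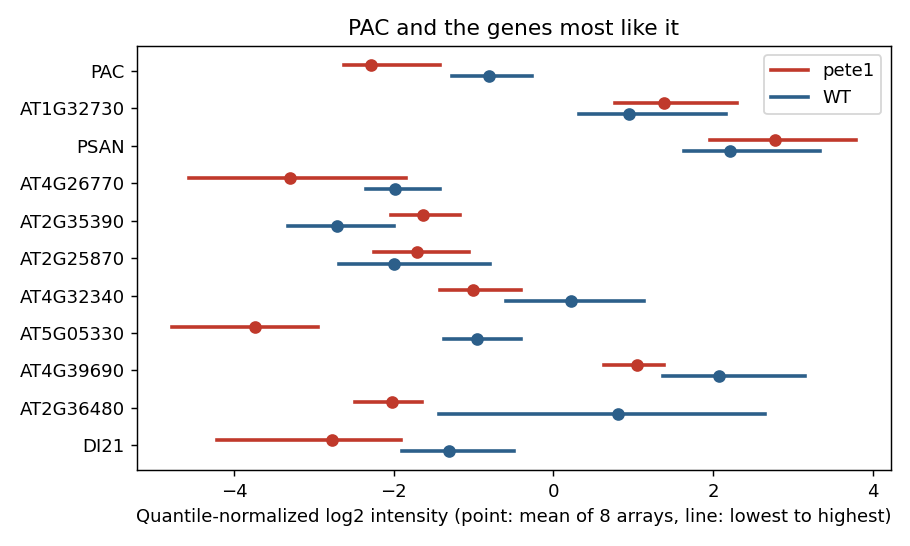
PAC and the 10 genes most like it by either measure. Points are means of 8 arrays and lines run from the lowest to the highest array, with pete1 (red) above WT (blue), in quantile-normalized log2 intensity. PAC, AT5G05330, AT2G36480 and, narrowly, DI21 have no overlap between groups, while PSAN, AT1G32730 and AT2G25870 overlap over most of their range. Of all 3439 probes, 58 had no overlap with pete1 below WT.

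The surroundings of PAC were looked at on the array and on the chromosome. Within 12 probe numbers on each side the array has 19 further probes, with a median log2 difference of 0.16, and 7 of the 19 were lower in pete1. Many of them are at the floor. Of the 9 that were above the highest floor on at least 14 of 16 arrays, 6 were lower in pete1, and their median was -0.30. The probes numbered 1 and 2 above PAC had differences of -0.75 and -0.95 (limma adjusted p = 0.0643 and 0.0591), in the direction of PAC but smaller, and the probe numbered 1 below had 1.48 (limma adjusted p = 0.0212), or 0.29 with 1 floor for all arrays, since 6 pete1 and 8 WT arrays were at it. The probe numbered 2 above PAC is the second probe of AT2G25870 given earlier, so these are 1 measurement. The labels do not say whether probe numbers follow the position of spots, and the part of position in the PAC value was not tested. In the RefSeq TAIR10.1 gene table PAC lies between REF4 and AT2G48121. Of the 2 genes on either side only AT2G48130, a step beyond AT2G48121, has a probe of its own. Its mean was -3.26 ± 1.18 in pete1 and -3.21 ± 0.68 in WT (SD over 8 arrays; limma adjusted p = 0.959).

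PAC kept its direction and the separation of the groups under the other scalings. The log2 difference was -1.91 as deposited, -1.44 with median centring, -1.47 with 75th percentile scaling and -1.51 with cyclic loess. The gap between the highest pete1 and the lowest WT array was 0.82, 0.048, 0.18 and 0.27 on these scales, in the same order. The deposited value holds the overall brightness of the arrays, by which the median probe itself differs by -0.56 between the groups. Relative to the median probe PAC was at -1.36 as deposited and at -1.70 after quantile normalization, or at -1.49 with 1 floor for all arrays.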

How the data were processed

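The table deposited by the authors holds spot intensity, linear, from 0 to 100 within each array, for 3439 probes on 16 arrays. Scanning, background correction, scaling and genome build are not stated in the labels. Genes were named from the platform annotation through RefSeq TAIR10.1. Groups came from sample titles.

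Intensities were quantile-normalized (limma 3.58.1, R 4.3.3), floored at the 5th percentile of each array's positive values and put on the log2 scale. From -7.06 to -4.10 (log2), these floors differ; the highest, 0.0581 in intensity, is the common floor. The comparison used limma (lmFit, eBayes) over 16 arrays without a block, two-sided, with Benjamini-Hochberg adjustment over 3439 probes at 0.05. The fit was tested on simulated data with 16 independent arrays. Consecutive arrays of this series correlate (consensus correlation 0.72), so that test cannot vouch for the p-values over 16 arrays. Array number limits the precision.

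PAC, the lists and the settings were chosen with earlier results of these data known. Plastid ribosomal genes were matched by locus after their symbols found no match. Named genes were PAC, measured list members, the 6 genes most like PAC by each of 2 correlations, and chromosomal neighbours. No sequence was used here.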

Additional observations from a re-analysis of the deposited data

Results flagged for a closer look

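PAC and the other named genes were searched, in each group of 8 arrays, for a single log2 value far from its group. PAC had none. Such a value was found in 3 of 58 searches, and about 1 in 20 comes up by chance. For SPPA it was -7.06 on WT replicate 2 (that array's floor), where the nearest other WT array had -6.01. For MTERF9 it was -3.24 on pete1 replicate 2, where the nearest other pete1 array had -1.70. For Z-ISO it was -4.23 on pete1 replicate 4, where the nearest other pete1 array had -3.01.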

How the results depend on the processing

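The log2 difference of PAC stayed negative under all 13 settings other than leaving out arrays (-1.91 to -1.37) and moved by more than its spread between arrays in 1 of them, the deposited scale (-1.91). Leaving out 1 array gave -1.59 to -1.42. Averaging pairs and leaving out 1 pair, chosen after seeing the data, gave -1.68 to -1.35. PAC ranked 77 to 181 from the lowest difference over all settings. The 464 calls (283 higher) became 269 on the deposited scale (27 higher, 242 lower), 775 with a 1st percentile floor (579 higher) and 762 with array weights (422 higher). Of 354 calls with median centring 168 were higher, of 368 with the 75th percentile 169, of 390 with cyclic loess 200, of 373 with the common floor 190, and of 358 with an offset 183. Without the dimmest 25% of probes 185 of 370 were higher. Averaging pairs, which leaves fewer samples, gave 9, and 35 with the common floor; pairs as a random block gave 62 (23 higher). Leaving out 1 array gave 313 to 872 calls, 872 without pete1 replicate 5, and leaving out 1 pair 5 to 23. Of the 12 listed plastid genes 1 was called, 2 with cyclic loess or a 1st percentile floor, 0 with pairs averaged (also with 1 pair left out), and 1 to 3 without 1 array, with 3 without pete1 replicate 5. The cause was not tested. The meaning of a shared replicate number is not stated in the labels. Deviations of same-numbered pete1 and WT arrays correlate at 0.011 to 0.41 and exceed 0.1 in 7 of 8 cases. Whether the number marks a shared effect was not tested. The labels give no pairing, and the main fit assumed none. With the replicate number as a block, PAC was again at -1.48, 494 probes were called and 1 listed gene. Values at 0 limit what dim probes can show; PAC had none.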
